A study of Mus musculus with 23 samples.

Results

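Lungs of mice labelled Rarres1-KO were compared at 10 months of age and at embryonic day 19.5 (E19.5), shortly before birth, across every gene of the expression table. The members are the 3 KO 10-month and the 3 KO E19.5 libraries, 6 of the 23 lung libraries of the series, and the table holds 24411 genes. Rarres1, retinoic acid receptor responder 1, is a retinoid-induced membrane protein. All 6 lungs came from C57BL/6 mice carrying the knockout, kept untreated in a pathogen-free barrier facility, and total RNA was sequenced. The 10-month mice were male, the embryos carry no sex label, and none of the 6 samples was a tumour. The labels give no allele, deleted exon, dissection detail, batch or time of day. Whether a sample is 1 animal or a pool is also not given. The wild-type (WT) lungs of the same ages, 3 at 10 months and 3 at E19.5, served to ask whether the KO change differed from the WT change. The libraries of a group were treated as separate samples, and nothing in the labels says that they came from separate litters, so p-values measure only the spread between these samples.

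Near term the mouse lung is still building its gas-exchange surface. Epithelial progenitors give rise to the flat type 1 cells, which carry gas exchange, and to the surfactant-making type 2 cells, while mesenchymal cells lay down elastin and collagen for the septa that divide the air sacs after birth. The fluid-filled fetal airspace switches from chloride secretion to sodium absorption around birth. Over the following weeks cell division slows, imprinted fetal growth genes are silenced, and immune cells settle in a tissue that now meets inhaled air.

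Values are given as CPM, counts per 1000000 counts of a library after scaling by the trimmed mean of M values (TMM), which compare 1 gene between libraries, or as FPKM, which also divide by transcript length and allow comparison between genes. Differences are log2 fold changes of KO 10-month over KO E19.5 lungs with their standard error, and a gene is called when edgeR's quasi-likelihood test gives a Benjamini-Hochberg adjusted p below 0.05 over all genes tested. The libraries held 26841217 to 32042766 counts in KO 10-month lungs and 24845059 to 28674628 in KO E19.5 lungs, with a count for 17536 to 17598 and 17731 to 17826 genes. The knockout label was checked first. Rarres1 had 0, 0 and 0 reads in KO 10-month lungs and 1, 1 and 0 in KO E19.5 lungs, while WT lungs had 47, 50 and 33 reads at 10 months and 42, 24 and 39 at E19.5. Rarres1 was thus near 0 in all 6 KO libraries and did not pass the filter for testing in them. All 9 lung identity genes were detected at both ages. The Y-linked genes Ddx3y and Eif2s3y showed differences of −0.02 and 0 between the KO ages, and Xist, the X-inactivation transcript, had 13, 10 and 17 reads in KO 10-month lungs and 8, 10 and 22 in KO E19.5 lungs. Kdm5d and Uty, also Y-linked, were called lower by 0.78 and 0.34 on the log2 scale. Uty lost its call without the third KO 10-month library (adjusted p = 0.0603). Both lost it with the spread estimated over all 23 libraries (0.514 for Kdm5d and 0.778 for Uty). Those include lungs of a later age, tumours and the third WT E19.5 library, which had 0 reads of both genes. That spread is thus not the spread of the KO lungs alone. The third WT E19.5 library differed, with 31145 Xist reads and 1, 0, 0 and 0 reads of Ddx3y, Eif2s3y, Kdm5d and Uty, the pattern of a female. It entered the WT comparison, the test of the difference and the fit over all 23 libraries, beside libraries with reads of these Y-linked genes. The third WT 10-month library had 163 Xist reads, against 10 and 17 in the other 2 of its group.

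Several libraries carried RNA of genes that mark other tissues, and those values stand here because they touch later results. Where this RNA came from was not tested. The 7 heart muscle markers summed to 97.6, 855 and 243 FPKM in KO 10-month lungs, against 1276, 578 and 1171 FPKM in KO E19.5 lungs. The second KO 10-month library was thus higher in heart marker RNA than the other 2 of its group. It was also high in fat markers, globin and neutrophil genes, and low in MHC class II genes. Fat markers summed to 15.2, 124 and 11.7 FPKM in KO 10-month lungs. In KO E19.5 lungs they summed to 0.78, 29.6 and 0.57 FPKM, the second library being highest there too. Cartilage markers summed to 0.02, 0.06 and 0.06 FPKM in KO 10-month lungs, against 3.54, 1.13 and 1.42 FPKM in KO E19.5 lungs. Skeletal muscle markers summed to 1.97, 16.3 and 6.4 FPKM in KO 10-month lungs, against 99.9, 41.0 and 74.2 FPKM in KO E19.5 lungs. Most of each sum was Ckm, with 1.18, 13.7 and 4.91 FPKM in KO 10-month lungs and 56.8, 31.2 and 64.0 FPKM in KO E19.5 lungs. Myh3, Myh8 and Acta1 were each at or below 0.07 FPKM in every KO 10-month library. The third KO E19.5 library held the most RNA of glycolytic genes, 4403 FPKM against 2784 and 2679 FPKM in the other 2. What part these differences have in the results was not tested. Leaving out the second KO 10-month library left 8794 called genes, and leaving out the third KO E19.5 library left 9540.

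Between E19.5 and 10 months the KO lung changed across much of its transcriptome. Of 15626 genes tested, 9454 were called (60.5%), 4858 of them higher in KO 10-month lungs (31.1%) and 4596 lower (29.4%). These shares are the background for every gene list that follows, and a list near them is not set apart. A gene near 0 at one age entered the test through its reads at the other age, so its direction was all but fixed in advance. The median log2 difference over all tested genes was 0.003, a value that TMM scaling sets close to 0. The median size among called genes was 0.76, and 3683 genes (23.6%) were called with at least a 2-fold difference, 2025 higher (13%) and 1658 lower (10.6%). For 10780 genes (69%) the libraries of the 2 ages did not overlap, and 10137 (64.9%) had an unadjusted p below 0.05. A stricter test against a 2-fold difference called 1333 higher (8.53%) and 1040 lower (6.66%). At the extremes, 253 genes were at least 16-fold higher and 187 at least 16-fold lower. The first principal component of the 12 KO and WT libraries of these ages held 84.3% of the variance and separated the ages, with KO 10-month scores of 58.1 to 58.8 against KO E19.5 scores of −60.8 to −54.1.

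**Figure D1:**
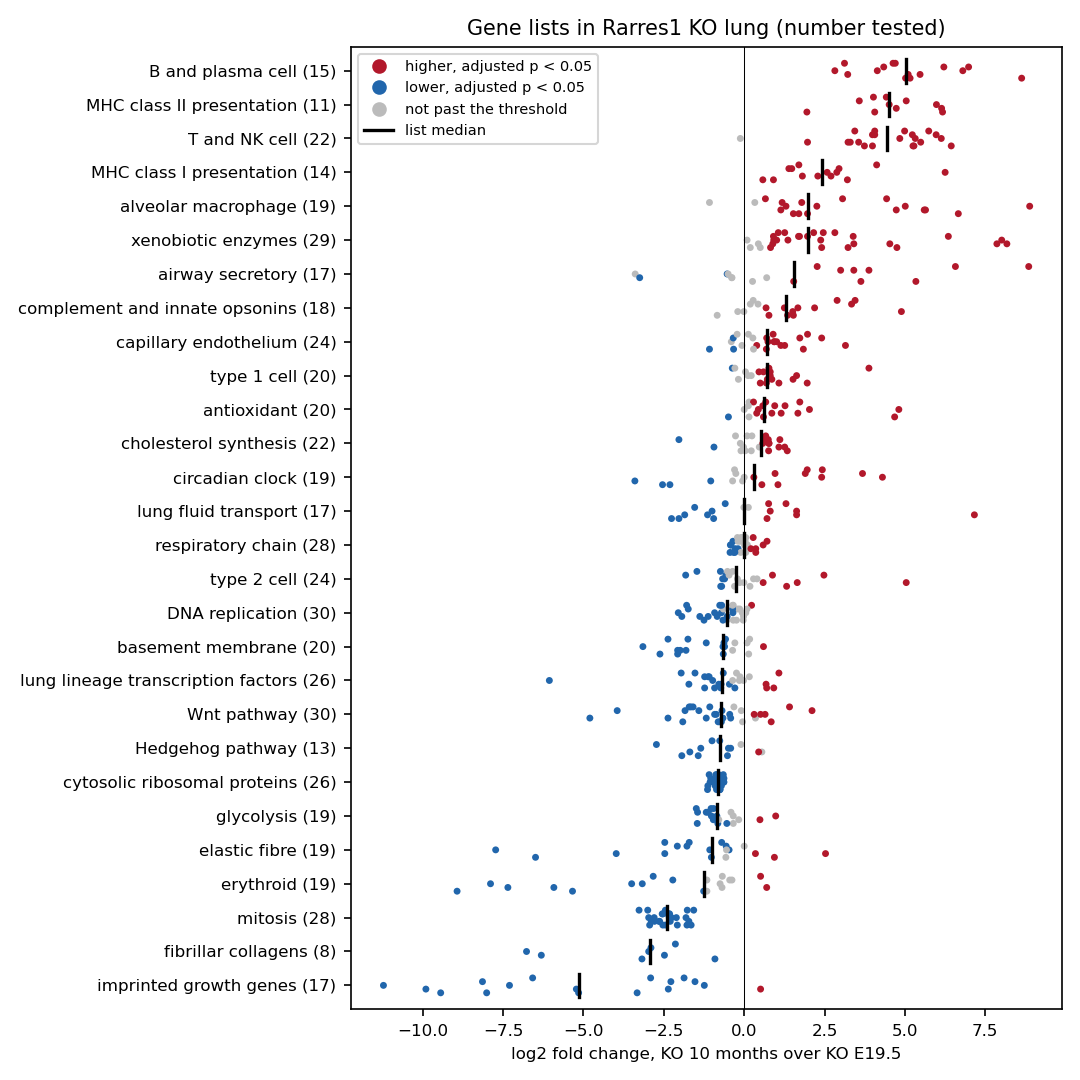
Log2 fold change of KO 10-month over KO E19.5 lungs (horizontal axis) for the tested members of 28 gene lists (vertical axis). Each point is a gene, red where called higher, blue where called lower and grey where the test was not passed, and each bar is the list median. The medians run between 5.02 for B and plasma cell genes and −5.15 for imprinted growth genes.

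The largest falls included imprinted genes beside genes of muscle, matrix and other functions. Dlk1, an imprinted gene for a Notch-like surface protein of progenitor cells, had 2.79, 0.115 and 0.0356 CPM in KO 10-month lungs, against 2080, 2190 and 3270 CPM in KO E19.5 lungs. The 2 ages were far apart for this gene (−11.22 ± 1.09, adjusted p = 0.00053), which lies at chr12:109452485-109463336 of GRCm38. H19, a long noncoding RNA from the imprinted Igf2 locus at chr7:142575530-142578146, had 2.16, 1.5 and 0.782 CPM in KO 10-month lungs, against 1300, 1200 and 1810 CPM in KO E19.5 lungs (−9.90 ± 0.37). The angiotensin receptor gene Agtr2 had 0.0317, 0.0384 and 0.0711 CPM in KO 10-month lungs, against 22.8, 19.7 and 23.4 CPM in KO E19.5 lungs (−8.74 ± 0.22). For all 3 genes every KO 10-month library lay below every KO E19.5 library. Col25a1, a membrane collagen of developing muscle and nerve, fell by 8.85 ± 0.26, and the protease inhibitor A2m fell by 8.70 ± 0.51. Gipr, Nrk, Acta1 and Mirg, a noncoding RNA of the Dlk1 to Meg3 locus, fell by 8.65, 8.49, 8.09 and 8.01 on the log2 scale. Acta1, skeletal actin, belongs to the muscle markers given above, with 0.0952, 0 and 0.0356 CPM in KO 10-month lungs and 28.8, 7.39 and 5.4 CPM in KO E19.5 lungs.

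For genes that were nearly silent at one age the ratio of reads is given with its 95% counting interval. Zim1, an imprinted zinc-finger gene, had 2 reads over the 3 KO 10-month libraries against 1526 over the KO E19.5 libraries, so it was 845-fold lower (234 to 6990). Frrs1l, an AMPA receptor partner of neurons, was 509-fold lower (141 to 4210), with 2 against 919 reads. Hmga2, the chromatin protein of embryonic growth, was 431-fold lower (147 to 2090), with 3 against 1166 reads. Myh8, perinatal myosin heavy chain, had 0 reads in KO 10-month lungs against 881 in KO E19.5 lungs, at least 325-fold lower against a floor of 3 reads over the group. Its libraries differed among themselves, with 23.4, 3.77 and 3.61 CPM in KO E19.5 lungs, and its adjusted p of 0.039 was 0.0657 and 0.181 without the second and the third KO E19.5 library and 0.0646 without the third KO 10-month library.

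Among the largest rises, the non-classical class I genes H2-Q8, H2-Q9 and H2-Q5 stood with enzymes of foreign compounds. H2-Q8 had 8207 reads over the KO 10-month libraries and 0 over the KO E19.5 libraries, at least 2470-fold higher against the same floor. The H2-Q genes are near-identical copies, so their reads may have been divided between them and the values of single copies are uncertain: H2-Q6 had 0, 0 and 0 reads in KO 10-month lungs and 10, 10 and 3 in KO E19.5 lungs. Mmp3, stromelysin, had 24.6, 17.5 and 23.1 CPM in KO 10-month lungs, against 0.0673, 0.154 and 0.0812 CPM in KO E19.5 lungs (7.70 ± 0.27). It was low in all 3 embryonic libraries and high in all 3 adult ones. Prmt8, an arginine methyltransferase of neurons, had 1489 reads in KO 10-month lungs and 1 read in KO E19.5 lungs, a ratio of 1340 (241 to 53100). The drug-metabolising genes Cyp2a5, Sult1d1 and Ces1g rose by 8.01, 7.86 and 7.24 on the log2 scale, and Cyp2a5 and Ces1g have close copies. The B-cell genes Fcmr and Fcer2a rose by 6.89 and 6.80, and Ankrd63 rose by 6.87.

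Of the largest rises, 2 rested on unequal libraries. Bpifa1, an antimicrobial airway protein, had 10, 609 and 26.7 CPM in KO 10-month lungs, against 0.303, 0.385 and 0.731 CPM in KO E19.5 lungs. Every KO 10-month library was higher, and the second far exceeded the other 2 of its group. Its difference of 8.85 ± 2.62 (adjusted p = 0.0403) was 5.29 (adjusted p = 0.000651) without the second KO 10-month library, and the call was lost without the first, the second or the third KO E19.5 library (adjusted p = 0.0971, 0.101 and 0.135). Jchain, the joining chain of secreted antibodies, had 15.2, 25.1 and 98.8 CPM in KO 10-month lungs and 0.101, 0.115 and 0.122 CPM in KO E19.5 lungs (8.63 ± 1.39, adjusted p = 0.00459), a call lost with limma voom (adjusted p = 0.115). With voom the adjusted p of Bpifa1 was 0.389.

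Cell division genes were lower in KO 10-month lungs, the mitotic genes throughout and the replication genes in part. All 28 mitosis genes were called lower, with a median of −2.41, while of 30 DNA replication genes 16 were called lower and 1 higher, with a median of −0.54. Mki67, the proliferation antigen, had 13.7, 10 and 13.6 CPM in KO 10-month lungs, against 75.1, 103 and 109 CPM in KO E19.5 lungs (−2.94 ± 0.18). Cdk1, the kinase that drives entry into mitosis, had 3.3, 2.27 and 3.41 CPM in KO 10-month lungs, against 28.9, 30.1 and 27.9 CPM in KO E19.5 lungs (−3.27 ± 0.15, adjusted p = 1.25e-06). The embryonic libraries were higher without overlap for both genes, and close to each other for Cdk1. Ccnb1 and Ccnb2, the B-type cyclins that activate Cdk1, fell by 2.97 ± 0.17 and 2.34 ± 0.18, and Ube2c, which marks the cyclins for destruction, fell by 3.00 ± 0.14. Top2a and Ccna2 fell by 2.65 and 2.63. Among replication genes, Rrm2, which makes deoxynucleotides, fell by 1.79 ± 0.18, Ccne2 by 1.94 ± 0.22 and Lig1, a DNA ligase, by 0.92. In contrast the helicase gene Mcm4 had 30.7, 29 and 30 CPM in KO 10-month lungs and 27.8, 32.8 and 26.4 CPM in KO E19.5 lungs, a difference of 0.05 (adjusted p = 0.694). Mcm2 likewise overlapped between the ages (−0.24, adjusted p = 0.338). Pcna, the replication clamp, was called higher by 0.23 (adjusted p = 0.0306), and that call was lost in 4 of 6 fits that left out 1 library, with an adjusted p of up to 0.118.

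The promoters of mitotic genes are shown because this list moved as a block. Cell-cycle promoters often carry a CHR element (TTTGAA) and CCAAT boxes (CCAAT), and replication promoters an E2F site (TTTCCCGC). The sequences run 5′ to 3′ from 250 bases before to 30 bases after the RefSeq start, on the minus strand of GRCm38.p6, and capitals mark CHR and CCAAT matches on either strand (TTCAAA and ATTGG on the other).
Cdk1, chr10:69352883-69353162: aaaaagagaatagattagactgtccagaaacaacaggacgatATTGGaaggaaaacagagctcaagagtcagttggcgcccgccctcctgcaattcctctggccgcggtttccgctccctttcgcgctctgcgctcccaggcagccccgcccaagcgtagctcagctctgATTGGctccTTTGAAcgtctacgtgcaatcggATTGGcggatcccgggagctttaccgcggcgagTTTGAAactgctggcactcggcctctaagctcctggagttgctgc
Ccnb2, chr9:70421525-70421804: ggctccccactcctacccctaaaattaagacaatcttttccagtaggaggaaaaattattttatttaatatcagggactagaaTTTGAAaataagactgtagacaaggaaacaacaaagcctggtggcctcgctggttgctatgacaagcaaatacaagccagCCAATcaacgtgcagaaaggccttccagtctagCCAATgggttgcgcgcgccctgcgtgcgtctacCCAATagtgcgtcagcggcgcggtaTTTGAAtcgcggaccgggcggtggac
Each window held 2 CHR and 3 CCAAT matches. A CHR match on either strand was present in 13 of 23 mitosis genes with such a window (56.5%), 3 of 25 replication genes (12%) and 1369 of all 11760 tested genes with a window (11.6%). A CCAAT match was present in 18 of 23 mitosis genes (78.3%), 14 of 25 replication genes (56%) and 4359 of all windows (37.1%). An E2F match was present in 0 of 23 mitosis genes, 3 of 25 replication genes and 212 of all windows (1.8%). A match describes these letters and is not evidence of binding.

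Cdkn1c, an imprinted cyclin-dependent kinase inhibitor, had 31.4, 43.2 and 31.4 CPM in KO 10-month lungs, against 263, 251 and 281 CPM in KO E19.5 lungs (−2.91 ± 0.14). Cdkn2a, the senescence-associated inhibitor, had 0.889, 0.653 and 0.604 CPM in KO 10-month lungs, against 0.135, 0.115 and 0.0406 CPM in KO E19.5 lungs (2.80 ± 0.46), both levels being low. Of 13 cell cycle inhibitors, 4 were called higher and 5 lower, near the background of 31.1% and 29.4%. Of 17 chromatin and DNA methylation genes, 14 were called lower and 0 higher. Dnmt3a, a de novo DNA methyltransferase, fell by 1.68 ± 0.09 and the Polycomb methyltransferase Ezh2 fell by 1.52 ± 0.12. The Polycomb reader Cbx2 and the demethylating enzyme Tet3 fell by 1.61 and 1.16. The maintenance methyltransferase Dnmt1 differed by −0.21 (adjusted p = 0.117).

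Imprinted growth genes had a median of −5.15, with 16 of 17 tested members called lower and 1 higher. Meg3, the maternally expressed RNA at chr12:109540996-109571729, had 9.02, 4.84 and 2.92 CPM in KO 10-month lungs, against 1280, 1170 and 2310 CPM in KO E19.5 lungs (−8.14 ± 0.59). Igf2, the fetal growth factor, had 16.2, 19.9 and 12.8 CPM in KO 10-month lungs, against 540, 515 and 682 CPM in KO E19.5 lungs (−5.15 ± 0.20). Both were lower in every adult library, and Igf2 varied little within each age. Mest had 3.97, 7.3 and 3.52 CPM in KO 10-month lungs, against 828, 980 and 501 CPM in KO E19.5 lungs (−7.30 ± 0.44). Grb10, a brake on insulin and IGF receptors, was less reduced, with 47, 45.7 and 44.9 CPM in KO 10-month lungs and 437, 441 and 502 CPM in KO E19.5 lungs (−3.33 ± 0.09). Peg3, Rian, Plagl1 and Gnas fell by 5.22, 6.58, 2.28 and 1.24. The exception was Sgce, a sarcoglycan, with 69.1, 75.3 and 73.3 CPM in KO 10-month lungs and 55.5, 50.1 and 47.4 CPM in KO E19.5 lungs (0.51 ± 0.08, adjusted p = 0.000644).

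Of 13 listed fetal RNA-binding and growth regulators, 9 had enough reads to test, and all 9 were called lower. Hmga2, Trim71 and Msi1 had 10 or fewer reads in every KO 10-month library and entered the test through their embryonic reads. Only a lower call was likely for them. Igf2bp3, which binds and stabilises fetal mRNAs, had 1.08, 0.653 and 0.676 CPM in KO 10-month lungs, against 41.1, 47.2 and 48.5 CPM in KO E19.5 lungs (−5.80 ± 0.18). Igf2bp1 fell by 2.99, and Lin28b, which blocks let-7 maturation, had 0, 0 and 0 reads in KO 10-month lungs and 3, 7 and 3 in KO E19.5 lungs, too few to test. The IGF axis did not move one way, with 4 of 13 members called higher and 7 lower. Igf1 had 10.1, 11.7 and 11.1 CPM in KO 10-month lungs, against 61, 62.5 and 51.9 CPM in KO E19.5 lungs (−2.42 ± 0.10). The binding protein gene Igfbp2, also a marker of mature type 1 cells, had 368, 377 and 408 CPM in KO 10-month lungs, against 23.2, 20.6 and 34.5 CPM in KO E19.5 lungs (3.88 ± 0.20). The ligands Igf1 and Igf2 were thus lower and this binding protein higher in the adult KO lung.

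Matrix genes showed some of the largest losses of RNA. Eln, tropoelastin, at chr5:134702595-134747368, had 93.7, 84.7 and 112 CPM in KO 10-month lungs, against 7260, 8910 and 9900 CPM in KO E19.5 lungs (−6.49 ± 0.20, adjusted p = 2.48e-07). Its mean FPKM was 26.6 in KO 10-month lungs and 2465 in KO E19.5 lungs. Of 19 elastic fibre genes, 13 were called lower and 3 higher, with a median of −1.02. Fbn2, the fetal fibrillin, had 0.286, 0.0384 and 0.569 CPM in KO 10-month lungs, against 58.6, 81.1 and 56.5 CPM in KO E19.5 lungs (−7.73 ± 0.41), whereas Fbn1 fell by 2.47 ± 0.12. Lox, which cross-links elastin and collagen, had 47.9, 59.5 and 46.2 CPM in KO 10-month lungs and 675, 628 and 1110 CPM in KO E19.5 lungs (−3.98 ± 0.26). Efemp1, fibulin 3, moved the other way, with 160, 140 and 182 CPM in KO 10-month lungs and 27, 25.5 and 30.8 CPM in KO E19.5 lungs (2.53 ± 0.12). Mfap4, a microfibril protein, had 619, 527 and 598 CPM in KO 10-month lungs, against 3140, 3280 and 3240 CPM in KO E19.5 lungs (−2.47). Ltbp1 and Fbln5, which bind latent TGF beta and assemble elastin, differed by 0 and −0.57 (adjusted p = 0.962 and 0.0811).

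Fibrillar collagens were called lower in 8 of 8 members, with a median of −2.94, and the 8 include Col2a1, also a cartilage marker. Col1a1 had 155, 99.3 and 172 CPM in KO 10-month lungs, against 980, 1380 and 1510 CPM in KO E19.5 lungs (−3.18 ± 0.26), and Col3a1 fell by 2.97 ± 0.26. Col11a1 and Col5a2 fell by 6.31 and 2.14. In the basement membrane the picture was mixed, 14 of 20 members being called lower and 1 higher. Col4a1 had 643, 630 and 683 CPM in KO 10-month lungs, against 3450, 4420 and 4170 CPM in KO E19.5 lungs (−2.62 ± 0.13), and its partner Col4a2 fell by 1.81. Col4a3, of the adult alveolar collagen IV network, was the member called higher, with 276, 334 and 326 CPM in KO 10-month lungs and 211, 236 and 169 CPM in KO E19.5 lungs (0.60 ± 0.13, adjusted p = 0.00416, or 0.0906 with the spread over all 23 libraries). Col4a4, its partner, differed by −0.29 (adjusted p = 0.0608). The linker genes Nid2 and Lamc1 fell by 3.15 and 2.37, and Npnt, nephronectin, differed by 0.17 (adjusted p = 0.293). Fn1, fibronectin, had 312, 373 and 391 CPM in KO 10-month lungs and 2950, 4030 and 3570 CPM in KO E19.5 lungs (−3.29 ± 0.16).

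**Figure D2:**
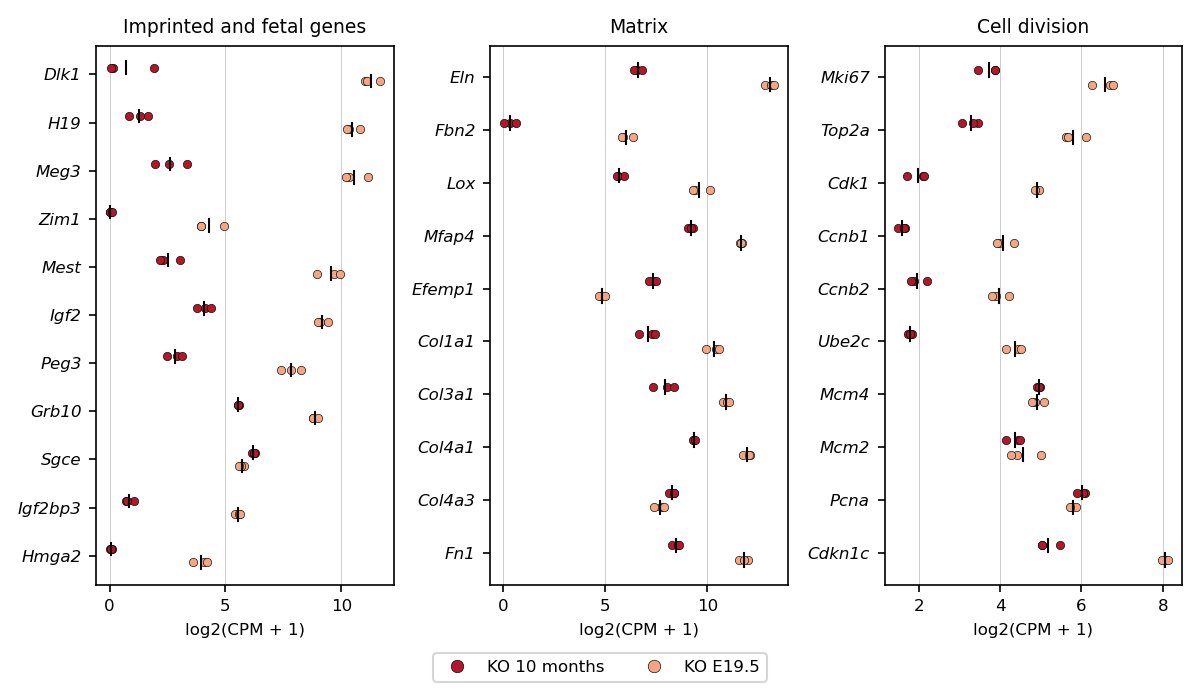
Expression as log2(CPM + 1) (horizontal axis) of imprinted and fetal genes, matrix genes and cell division genes (vertical axis, 3 panels) in the 3 KO 10-month and 3 KO E19.5 lungs. Points are libraries and bars are group means. The ages separate for nearly all genes, with Sgce, Efemp1 and Col4a3 higher at 10 months and Mcm4 and Mcm2 overlapping.

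Matrix proteases and their inhibitors went both ways, with 6 of 17 called higher and 7 lower. The inhibitor gene Timp2 had 815, 766 and 851 CPM in KO 10-month lungs, against 244, 251 and 204 CPM in KO E19.5 lungs, a difference of 1.80. Mmp12, a macrophage elastase, and Mmp9, a gelatinase of neutrophils, rose by 4.15 and 2.07. Mmp14 and Mmp2, a membrane-bound collagenase and a gelatinase of the stroma, fell by 2.38 and 1.70, and Timp3 differed by 0.16 (adjusted p = 0.324). In all 6 libraries the tissue was bulk lung, so fewer cells of a type and less RNA per cell cannot be told apart for any gene.

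Genes of contractile and stromal cells changed less uniformly. Of 17 myofibroblast and smooth muscle genes, 10 were called lower and 3 higher, with a median of −0.79. Hhip, a Hedgehog antagonist of myofibroblasts, had 42.8, 39.5 and 42.9 CPM in KO 10-month lungs, against 263, 332 and 238 CPM in KO E19.5 lungs (−2.73 ± 0.13). Acta2, smooth muscle actin, had 158, 164 and 168 CPM in KO 10-month lungs and 249, 252 and 277 CPM in KO E19.5 lungs (−0.67, adjusted p = 9.13e-05, or 0.0514 with the spread over all 23 libraries). The smooth muscle activator Myocd and the pericyte gene Cspg4 fell by 2.32 and 2.05. The contractile genes Tagln and Myh11 differed by −0.06 and 0.06 (adjusted p = 0.506 and 0.592), and Cnn1, calponin, rose by 1.31. Among 20 fibroblast genes, 5 were called higher and 9 lower. Tcf21, the transcription factor of lipid-storing fibroblasts, had 102, 135 and 95.2 CPM in KO 10-month lungs, against 455, 399 and 447 CPM in KO E19.5 lungs (−1.97). Fgf10, the mesenchymal signal for branching, had 20.2, 17.8 and 19.2 CPM in KO 10-month lungs and 72.8, 65.3 and 88.4 CPM in KO E19.5 lungs (−1.98). Inmt, a methyltransferase of adult alveolar fibroblasts, had 1870, 2110 and 2000 CPM in KO 10-month lungs and 266, 155 and 345 CPM in KO E19.5 lungs (2.97 ± 0.28). The adventitial genes Dcn and Pi16 rose by 1.48 and 1.74, the fibroblast collagens Col13a1 and Col14a1 fell by 1.43 and 2.42, and Pdgfra and the lipid-droplet gene Plin2 differed by 0.21 and −0.07 (adjusted p = 0.148 and 0.625).

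Several airway secretory genes rose. Scgb1a1, the club cell secretoglobin at chr19:9083642-9087956, had 42200, 48900 and 43000 CPM in KO 10-month lungs, against 1320, 1030 and 946 CPM in KO E19.5 lungs (5.34 ± 0.20, adjusted p = 4.72e-07). Its mean FPKM was 162800 in KO 10-month lungs and 4150 in KO E19.5 lungs, and it gained more CPM than any other gene. The 10 most abundant genes took 9.16 to 9.81% of counts in KO 10-month lungs and 6.06 to 6.29% in KO E19.5 lungs. Of 17 airway secretory genes, 9 were called higher and 2 lower, with a median of 1.54. Cyp2f2, a club cell cytochrome, had 2910, 2890 and 3140 CPM in KO 10-month lungs, against 263, 272 and 304 CPM in KO E19.5 lungs (3.41 ± 0.11). Pigr, which carries IgA across the epithelium, had 77.5, 89.8 and 72.5 CPM in KO 10-month lungs, against 0.875, 0.847 and 0.772 CPM in KO E19.5 lungs (6.57 ± 0.13, adjusted p = 5.71e-08). Both were high in every adult library and varied little within an age. Aldh1a1 and Cbr2, which reduce or oxidise reactive aldehydes and ketones, rose by 3.88 ± 0.12 and 2.27 ± 0.16, and Hp, haptoglobin, rose by 1.54.

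Other secretory genes varied within an age. Reg3g, an antimicrobial lectin, had 1.08, 22.3 and 2.88 CPM in KO 10-month lungs, against 146, 66.9 and 57.8 CPM in KO E19.5 lungs, without passing the test (−3.39, adjusted p = 0.0594). Scgb3a1 and Muc5b, an airway secretoglobin and mucin, differed by −0.39 and −0.38 (adjusted p = 0.809 and 0.604). Scgb3a2, the early club cell secretoglobin, had 562, 752 and 743 CPM in KO 10-month lungs and 1260, 879 and 827 CPM in KO E19.5 lungs. Its call (−0.53 ± 0.19, adjusted p = 0.0374) was lost without the first KO E19.5 library (0.103) or the first or the third KO 10-month library (0.115 and 0.0605), and with the spread over all 23 libraries (0.105). Ciliated cell genes were close to the background, with 5 of 17 called higher and 3 lower. Foxj1, the regulator of motile cilia, had 116, 130 and 129 CPM in KO 10-month lungs and 98.7, 98.1 and 144 CPM in KO E19.5 lungs (0.14, adjusted p = 0.444). The genes that drive multiciliated cell formation, Mcidas and Ccno, fell by 2.85 ± 0.36 and 2.20 ± 0.14, while the axoneme genes Dnah5 and Rsph1 rose by 1.02 and 0.82. Of 12 neuroendocrine genes, 5 were called lower and 1 higher.

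The alveolar lists stood as follows. Of 20 type 1 genes, 14 were called higher and 1 lower, with a median of 0.71, and of 24 type 2 genes, 6 were called higher and 8 lower, with a median of −0.25. Hopx, a homeodomain protein of type 1 cells, had 859, 1070 and 921 CPM in KO 10-month lungs and 449, 422 and 471 CPM in KO E19.5 lungs (1.08 ± 0.10). Ager, the abundant receptor of type 1 membranes, had 2470, 2860 and 2590 CPM in KO 10-month lungs and 1670, 1670 and 1470 CPM in KO E19.5 lungs (0.72 ± 0.11). Aqp5, their water channel, had 410, 384 and 406 CPM in KO 10-month lungs and 137, 122 and 129 CPM in KO E19.5 lungs (1.63 ± 0.08). No library of one age reached the other for these 3 genes. Spock2 and Clic5 rose by 1.52 and 0.69, Rtkn2 was the member called lower (−0.37, adjusted p = 0.00786, or 0.229 with the spread over all 23 libraries), and Cav1 and Akap5 differed by 0.12 and −0.18 (adjusted p = 0.301 and 0.152).

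Surfactant genes were already abundant at E19.5. Sftpc, surfactant protein C, had 15000, 10700 and 13000 CPM in KO 10-month lungs and 10800, 10900 and 10000 CPM in KO E19.5 lungs, an overlap with no call (0.29 ± 0.15, adjusted p = 0.134). Its mean FPKM of 21000 in KO 10-month lungs and 17790 in KO E19.5 lungs exceeded those of the other surfactant proteins. Sftpa1, an opsonin of the airspace, had 4340, 3810 and 3660 CPM in KO 10-month lungs and 1500, 1410 and 1830 CPM in KO E19.5 lungs (1.32 ± 0.13), and the related Sftpd rose by 0.88 ± 0.18. Sftpb, which spreads the surfactant film, had 5300, 3220 and 4400 CPM in KO 10-month lungs and 2600, 2640 and 3350 CPM in KO E19.5 lungs. Its call (0.59 ± 0.19, adjusted p = 0.0265) was lost in 4 of 6 fits without 1 library, with an adjusted p of up to 0.101, and with the spread over all 23 libraries (0.0707). The lipid transporter gene Abca3 had 637, 430 and 569 CPM in KO 10-month lungs and 820, 973 and 937 CPM in KO E19.5 lungs (−0.74 ± 0.15), and Lamp3 and Napsa differed by −0.30 and −0.14 (adjusted p = 0.204 and 0.506). The lysozymes moved apart: Lyz2 had 7290, 5690 and 6590 CPM in KO 10-month lungs and 1490, 1080 and 931 CPM in KO E19.5 lungs (2.48 ± 0.19), whereas Lyz1 fell by 1.47 ± 0.21. Lyz2 is shared with macrophages, whose markers also rose. Scd1, a fatty acid desaturase, had 2660, 2540 and 2140 CPM in KO 10-month lungs and 934, 722 and 685 CPM in KO E19.5 lungs (1.65).

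Genes of fluid transport moved both ways. Of 17 members, 7 were called higher and 8 lower, with a median of −0.01. The 3 subunits of the epithelial sodium channel, which draws fluid out of the airspace, were all higher in KO 10-month lungs. Scnn1a had 552, 739 and 520 CPM in KO 10-month lungs and 339, 375 and 391 CPM in KO E19.5 lungs (0.71 ± 0.14), and its FPKM of 179 and 114 at these ages exceeded that of the other subunits. Scnn1b rose by 1.63 ± 0.12 and Scnn1g by 0.81 ± 0.09. Sgk1, the kinase that retains the channel at the membrane, had 106, 149 and 101 CPM in KO 10-month lungs and 51.9, 42.5 and 49.8 CPM in KO E19.5 lungs (1.3). Nedd4l, the ligase that removes it, had 82.1, 76.1 and 81.6 CPM in KO 10-month lungs and 220, 220 and 256 CPM in KO E19.5 lungs (−1.54 ± 0.08). Cftr, the chloride channel, had 8.06, 9.07 and 13.5 CPM in KO 10-month lungs and 45, 46.8 and 33.6 CPM in KO E19.5 lungs (−2.03 ± 0.22), and Slc12a2, the cotransporter that loads chloride into the cell, fell by 1.14. Clcn2, another chloride channel, fell by 1.00. The water channel gene Aqp1 of capillaries rose by 0.76 and Aqp4 of the epithelium fell by 1.85, while the chloride channel gene Ano1 differed by −0.01 (adjusted p = 0.939).

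**Figure D3:**
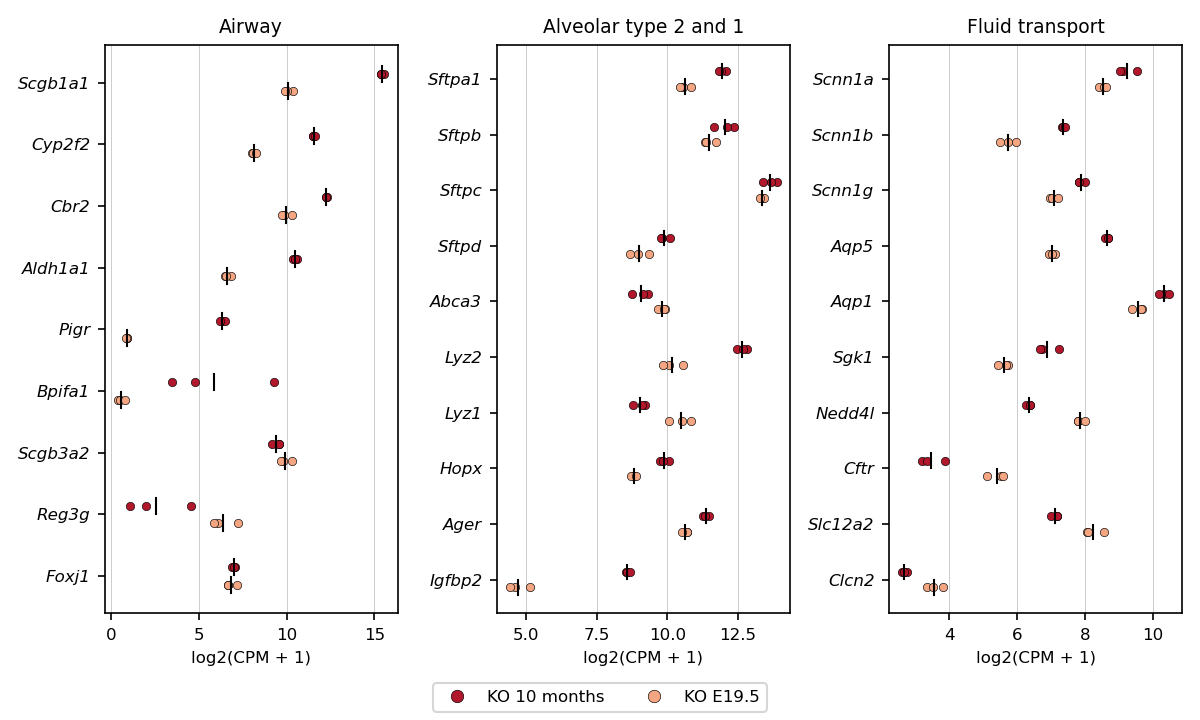
Expression as log2(CPM + 1) (horizontal axis) of airway, alveolar and fluid transport genes (vertical axis, 3 panels) in the 3 KO 10-month and 3 KO E19.5 lungs. Points are libraries and bars are group means. Scgb1a1 and Pigr lie far higher at 10 months, Sftpc and Foxj1 overlap, and Cftr and Nedd4l lie lower at 10 months.

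Genes of lung morphogenesis differed between lists. Of 26 lung lineage transcription factors, 16 were called lower and 4 higher. Sox9, the factor of distal tip progenitors, had 0.254, 0.538 and 0.178 CPM in KO 10-month lungs, against 18.2, 19.3 and 26.9 CPM in KO E19.5 lungs (−6.06 ± 0.32). Nkx2-1, the master factor of lung epithelium, had 217, 172 and 183 CPM in KO 10-month lungs and 343, 332 and 409 CPM in KO E19.5 lungs (−0.92). Sox9 was nearly lost while Nkx2-1 stayed well above 100 CPM in every library. Elf5, Foxp2, Gata6 and Tbx4 fell by 1.53, 1.96, 0.73 and 0.98, Sox2 of the airway rose by 0.68, and Foxa2 differed by −0.02 (adjusted p = 0.872). The rise of Sox2 did not pass with the spread over all 23 libraries (adjusted p = 0.103).

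Of 30 Wnt pathway genes, 20 were called lower and 6 higher, and of 13 Hedgehog genes, 10 were lower and 1 higher. Wnt7b, an epithelial ligand, had 6.98, 5 and 5.9 CPM in KO 10-month lungs, against 32.8, 29.3 and 30.4 CPM in KO E19.5 lungs (−2.37 ± 0.13). The ligand gene Wnt4 went the other way, with 24.9, 21.5 and 22.5 CPM in KO 10-month lungs and 4.68, 4.7 and 6.58 CPM in KO E19.5 lungs (2.11 ± 0.15). Rspo2, which amplifies Wnt signals, the ligand gene Wnt5a and the receptor gene Fzd2 fell by 3.95, 1.66 and 1.71. Axin2, a common target of the pathway, had 30.6, 30.7 and 35 CPM in KO 10-month lungs and 78.6, 74 and 65.9 CPM in KO E19.5 lungs (−1.18). The co-receptor gene Lrp6 differed by −0.09 (adjusted p = 0.429). Shh, the epithelial Hedgehog ligand, had 12.9, 10.7 and 13.4 CPM in KO 10-month lungs and 56.1, 51.5 and 34.6 CPM in KO E19.5 lungs (−1.94 ± 0.19). The effectors Gli1 and Gli2 fell by 1.43 and 1.69 and the receptor genes Ptch1 and Smo by 0.49 and 0.76, Ptch1 without a call when the spread came from all 23 libraries (adjusted p = 0.0878).

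In the FGF list 3 of 16 members were called higher and 8 lower. The ligand gene Fgf1 had 342, 357 and 350 CPM in KO 10-month lungs and 141, 140 and 95.3 CPM in KO E19.5 lungs (1.48), while the receptor genes Fgfr4 and Fgfr3 fell by 1.26 and 0.56. TGF beta and BMP genes were more often higher, with 11 of 25 called higher and 5 lower. Bmp6 had 224, 221 and 223 CPM in KO 10-month lungs, against 25.4, 23.9 and 29.7 CPM in KO E19.5 lungs (3.08 ± 0.09), and lies at chr13:38345716-38500314. The BMP antagonist gene Chrdl1 had 30.3, 27.4 and 35.7 CPM in KO 10-month lungs and 1.11, 1.19 and 0.894 CPM in KO E19.5 lungs (4.86). Both a BMP ligand and an antagonist were thus higher in all adult libraries. The receptor genes Bmpr2 and Eng rose by 1.85 and 1.74, and Smad6, an inhibitor of the pathway, by 2.24. Fstl1, a secreted BMP modulator, had 114, 100 and 116 CPM in KO 10-month lungs and 907, 929 and 1010 CPM in KO E19.5 lungs (−3.11 ± 0.10). Tgfb2 fell by 0.80 and Tgfb1 differed by 0.16 (adjusted p = 0.361). Of 14 Notch genes, 4 were called higher and 3 lower: the ligands Dll1 and Dll4 and the endothelial receptor gene Notch4 rose by 1.88, 0.86 and 0.73, Jag2 fell by 1.03, and Notch1 differed by 0.15 (adjusted p = 0.229).

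Retinoid genes are of interest because the deleted gene responds to retinoids. Of 24 members, 10 were called higher and 7 lower, with a median of 0.44. Lrat, which stores retinol as esters, had 203, 66 and 119 CPM in KO 10-month lungs, against 1.68, 1.77 and 1.34 CPM in KO E19.5 lungs (6.33 ± 0.56). Adh1, a retinol dehydrogenase, had 123, 128 and 141 CPM in KO 10-month lungs and 604, 614 and 431 CPM in KO E19.5 lungs (−2.07), while Adh7 rose by 2.92. The receptor genes Rarb and Rara differed in direction, at 0.71 and −0.36, both called, Rara not so with the spread over all 23 libraries (adjusted p = 0.0524). Cyp26b1, which degrades retinoic acid, varied between adult libraries, with 146, 12.5 and 73.7 CPM in KO 10-month lungs and 34.6, 30.7 and 43.6 CPM in KO E19.5 lungs (1.10, adjusted p = 0.327). In the glucocorticoid response list 3 of 17 were called higher and 3 lower. The mineralocorticoid receptor gene Nr3c2 had 22.3, 22.1 and 20.7 CPM in KO 10-month lungs and 1.75, 2.23 and 1.87 CPM in KO E19.5 lungs (3.47 ± 0.13), and the glucocorticoid receptor gene Nr3c1 differed by 0.06 (adjusted p = 0.592). Among 17 Hox genes, 9 were called lower and 2 higher, with Hoxb3 at −1.33 and Hoxa7 at 1.45.

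Capillary endothelial genes were called higher in 15 of 24 members and lower in 3, with a median of 0.72. Epas1, the hypoxia-inducible factor of endothelium at chr17:86753864-86833410, is not a member of this list. It had 2870, 3200 and 2550 CPM in KO 10-month lungs, against 275, 391 and 308 CPM in KO E19.5 lungs (3.15 ± 0.16). The guidance gene Sema3c had 476, 683 and 428 CPM in KO 10-month lungs and 61.5, 56.7 and 60.2 CPM in KO E19.5 lungs (3.15 ± 0.18), and Plvap, of fenestral diaphragms, rose by 2.41. Tek, the angiopoietin receptor, had 399, 450 and 407 CPM in KO 10-month lungs and 128, 138 and 113 CPM in KO E19.5 lungs (1.73). Each of these genes was higher in all adult libraries. Car4 and Ptprb rose by 1.97 and 1.84 and the pan-endothelial gene Pecam1 by 0.69, while Emcn and Ednrb fell by 1.08 and 0.33. The call of Ednrb was lost with the spread over all 23 libraries (adjusted p = 0.358). Aplnr had 101, 15.1 and 107 CPM in KO 10-month lungs and 91.9, 133 and 70 CPM in KO E19.5 lungs (−0.40, adjusted p = 0.681), with the second adult library low. The VEGF receptor gene Kdr differed by 0.29 (adjusted p = 0.0571).

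Large vessel and lymphatic genes went both ways, with 7 of 16 called higher and 4 lower. Vwf, von Willebrand factor, had 602, 1200 and 524 CPM in KO 10-month lungs and 103, 128 and 140 CPM in KO E19.5 lungs (2.64 ± 0.35), and the venular selectin gene Selp rose by 5.25. The prostaglandin transporter gene Slco2a1 rose by 1.18. The lymphatic and venous regulators Prox1 and Nr2f2 fell by 1.42 and 0.81, and the arterial factor gene Sox17 fell by 1.23.

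Most listed lymphocyte genes were higher in KO 10-month lungs. Of 22 T and NK cell genes, 21 were called higher and 0 lower (median 4.45), and of 15 tested B and plasma cell genes, 15 were called higher (median 5.02). Cd2, a T-cell adhesion receptor, had 22.5, 17.8 and 20.4 CPM in KO 10-month lungs, against 0.404, 0.346 and 0.0812 CPM in KO E19.5 lungs (6.13 ± 0.30). Ccl5, a chemokine of memory T and NK cells, had 17.9, 24 and 21.4 CPM in KO 10-month lungs and 0.471, 0.693 and 0.487 CPM in KO E19.5 lungs (5.25 ± 0.20). Cd22, a B-cell inhibitory receptor, had 36, 35.1 and 38.2 CPM in KO 10-month lungs and 0.909, 1 and 0.528 CPM in KO E19.5 lungs (5.47 ± 0.18). These 3 genes were at or below 1 CPM in every embryonic lung. For listed genes near 0 in the embryos only a higher call was likely, since they entered the test through their adult reads. Cd8b1, Cd3g and Il7r rose by 6.44, 5.32 and 5.23, and Cr2, Pou2af1 and Cd79b by 6.98, 4.14 and 2.82. The T and NK gene not called was Gzmb, granzyme B, with 2.44, 2.31 and 2.84 CPM in KO 10-month lungs and 3.3, 2.27 and 2.68 CPM in KO E19.5 lungs (−0.12, adjusted p = 0.647).

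Alveolar macrophage genes were called higher in 17 of 19 tested members and monocyte and interstitial macrophage genes in 15 of 17, with 0 lower in both lists. Chil3, a chitinase-like lectin of alveolar macrophages, had 625, 953 and 490 CPM in KO 10-month lungs, against 6.8, 6.81 and 6.82 CPM in KO E19.5 lungs (6.66 ± 0.30). Itgax, integrin CD11c, had 78.7, 54.3 and 67.1 CPM in KO 10-month lungs and 2.39, 2.62 and 1.14 CPM in KO E19.5 lungs (5.01), and Krt79, Ear1 and Siglecf rose by 5.64, 5.60 and 4.43. Marco and Fabp4, also in that list, did not pass the test (0.33 and −1.08, adjusted p = 0.39 and 0.349). Csf1r, the growth factor receptor of macrophages, had 171, 169 and 187 CPM in KO 10-month lungs and 55.7, 60.3 and 46.9 CPM in KO E19.5 lungs (1.69). Fcgr4, Cd14 and Adgre1 rose by 2.15, 1.76 and 1.07, whereas Cx3cr1 differed by 0.03 (adjusted p = 0.908). The list medians were 1.97 for alveolar macrophages and 1.16 for monocytes and interstitial macrophages. Of 13 tested neutrophil and myeloid granule genes, 7 were called higher, among them Retnlg and Csf3r, by 2.43 and 1.87. Ngp, a granule gene of immature neutrophils, had 0.159, 6.42 and 0.142 CPM in KO 10-month lungs and 4.71, 5.5 and 4.91 CPM in KO E19.5 lungs (adjusted p = 0.466). Mast cell, basophil and ILC2 genes were mixed, with Cpa3 lower by 3.11 on the log2 scale and Gata3 higher by 2.66.

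Antigen presentation genes were called higher without exception, 11 of 11 for MHC class II (median 4.51) and 14 of 14 for MHC class I (median 2.43). H2-Aa, a class II chain, had 660, 366 and 595 CPM in KO 10-month lungs, against 8.08, 8.01 and 6.38 CPM in KO E19.5 lungs (6.17 ± 0.28). Ciita, the transactivator of class II genes, had 51.6, 37.4 and 54.5 CPM in KO 10-month lungs and 2.69, 2.35 and 1.58 CPM in KO E19.5 lungs (4.42 ± 0.22). In both genes the second adult library was the lowest of its group yet far above the embryonic ones. Cd74, the invariant chain, also made by type 2 cells, rose by 5.04 ± 0.35. H2-K1, a classical class I gene, had 1320, 1240 and 1320 CPM in KO 10-month lungs and 154, 134 and 131 CPM in KO E19.5 lungs (3.21 ± 0.10), and H2-D1 and B2m rose by 2.70 ± 0.11 and 2.58 ± 0.17. Interferon response genes did not follow as one list: 9 of 26 were called higher and 3 lower. Gbp2 and Irf1 rose by 2.72 and 1.28, whereas Rsad2, an antiviral enzyme, had 6.54, 11.7 and 6.93 CPM in KO 10-month lungs and 38.3, 23 and 20.6 CPM in KO E19.5 lungs (−1.71, adjusted p = 0.00399). Isg15 had 9.56, 9.99 and 11.4 CPM in KO 10-month lungs and 32.6, 16.3 and 9.75 CPM in KO E19.5 lungs (−0.93, adjusted p = 0.111), with the first embryonic library highest.

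Complement and innate opsonin genes were called higher in 12 of 18 members and lower in 0. C4b, complement component 4, at chr17:34728139-34743902, had 374, 398 and 412 CPM in KO 10-month lungs, against 13.1, 11 and 16 CPM in KO E19.5 lungs (4.89 ± 0.14). C3, the hub of the cascade, had 832, 1070 and 1030 CPM in KO 10-month lungs and 262, 310 and 441 CPM in KO E19.5 lungs (1.53). The protease gene C1s1 rose by 2.19, while Hc, component 5, differed by −0.01 (adjusted p = 0.974). Of 21 chemokine genes, 16 were called higher and 1 lower. Cxcl14, Cxcl16 and Cx3cl1 rose by 3.24, 2.73 and 2.66, the lung chemokine gene Cxcl15 differed by −0.47 (adjusted p = 0.0632), and Ccl8 had 230 reads in KO 10-month lungs and 1 in KO E19.5 lungs, a ratio of 208 (36.9 to 8240).

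Red cell genes fell in part. Of 19 tested erythroid genes, 10 were called lower and 2 higher. Slc4a1, the anion exchanger of the red cell membrane, had 1.56, 6.65 and 0.676 CPM in KO 10-month lungs, against 84.2, 75.2 and 193 CPM in KO E19.5 lungs (−5.34 ± 0.93, adjusted p = 0.00604). The embryonic globin genes Hbb-y and Hba-x had 3 and 1 reads in KO 10-month lungs against 494 and 295 in KO E19.5 lungs, ratios of 182 (62.1 to 888) and 327 (58.2 to 13000). Rhag, of the Rh complex, had 0 reads against 174, at least 64.3-fold lower. The adult beta-globin gene Hbb-b1, by contrast, had 2670, 6750 and 2140 CPM in KO 10-month lungs and 8030, 6520 and 4910 CPM in KO E19.5 lungs (−0.75, adjusted p = 0.209). Hba-a1 had 1890, 4470 and 1490 CPM in KO 10-month lungs and 7200, 6460 and 5140 CPM in KO E19.5 lungs (−1.26 ± 0.43, adjusted p = 0.0413). That call was lost in 5 of 6 fits without 1 library, with an adjusted p of up to 0.125, and was −1.89 (adjusted p = 0.000107) without the second KO 10-month library. With the spread over all 23 libraries it was lost too (0.502). Globin genes have near-identical copies, so the values of single copies are uncertain. Hbb-b2 and Hbb-bt had the same reads in every KO library, and each counts among the 19. The erythroid factor gene Klf1 and the blood group genes Rhd and Ermap fell by 3.17, 5.92 and 3.50. Of 11 platelet and megakaryocyte genes, 7 were called higher and 0 lower, with Ppbp and Clec1b rising by 4.29 and 2.30, and Pf4 at 0.02 (adjusted p = 0.937).

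Most listed enzymes of foreign compounds and oxidant defence rose. Of 29 xenobiotic genes, 25 were called higher and 0 lower, with a median of 1.97. Cyp2b10, a drug-inducible cytochrome at chr7:25897658-25926624, had 365, 417 and 334 CPM in KO 10-month lungs, against 4.78, 4.23 and 4.63 CPM in KO E19.5 lungs (6.35 ± 0.12, adjusted p = 5.71e-08). Gsta3, a glutathione transferase, had 218, 261 and 224 CPM in KO 10-month lungs and 11.1, 7.78 and 11.4 CPM in KO E19.5 lungs (4.53 ± 0.16), and Fmo1 and Gstm1 rose by 2.46 and 1.97. Cyp2e1 and Ugt1a6a differed by 0.50 and 0.09 (adjusted p = 0.478 and 0.457). Of 20 antioxidant genes, 15 were called higher and 1 lower. Sod3, the extracellular superoxide dismutase, had 375, 298 and 369 CPM in KO 10-month lungs and 11.8, 14.9 and 10.5 CPM in KO E19.5 lungs (4.81 ± 0.16). Its cytosolic counterpart Sod1 differed by 0.15 (adjusted p = 0.181). Gpx2, Srxn1 and Prdx6 rose by 4.68, 2.03 and 1.67, and Prdx2, abundant in red cells, was the member that fell, by 0.49.

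Glycolytic and hypoxia-responsive genes were mostly lower. Of 19 glycolysis genes, 12 were called lower and 2 higher, with a median of −0.85. Eno1, enolase, had 126, 138 and 126 CPM in KO 10-month lungs and 260, 322 and 481 CPM in KO E19.5 lungs (−1.45), and Pfkl, Pgam1 and Aldoc fell by 1.49, 1.02 and 1.18. The lactate dehydrogenase gene Ldhb rose by 0.98, and Aldoa differed by −0.34 (adjusted p = 0.342). Hypoxia response genes were called lower in 12 of 18 members and higher in 4. Hif3a, a hypoxia-inducible factor subunit, had 4.16, 11.2 and 2.6 CPM in KO 10-month lungs, against 349, 429 and 504 CPM in KO E19.5 lungs (−6.18 ± 0.60, adjusted p = 0.00052). Egln3, a hypoxia-induced prolyl hydroxylase, had 2.29, 3.73 and 2.1 CPM in KO 10-month lungs and 82.3, 61.2 and 196 CPM in KO E19.5 lungs (−5.40), the third embryonic library being highest. Ankrd37, Kdm3a and Hif1a fell by 3.15, 0.98 and 0.45, and Pfkfb3 rose by 1.76. The 3 subunit genes therefore ran apart, since Epas1 was higher and Hif1a and Hif3a were lower. Fatty acid and phospholipid synthesis genes were mixed, with 7 of 18 called higher and 3 lower: Elovl1 and Fads1 rose by 2.22 and 1.13, and Fasn and Gpam fell by 0.92 and 1.07. Of 22 cholesterol synthesis genes, 11 were called higher and 2 lower, among them Hsd17b7 and Sc5d, higher by 1.34 and 1.26. Respiratory chain genes had a median of −0.02, with 6 of 28 called higher and 8 lower.

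Genes often used to scale expression were not all level. Gapdh had 597, 666 and 580 CPM in KO 10-month lungs and 933, 888 and 1440 CPM in KO E19.5 lungs (−0.82 ± 0.18, adjusted p = 0.0053), and Hprt rose by 0.55. Actb and Tbp differed by −0.14 and −0.10 (adjusted p = 0.261 and 0.412). Of 18 common reference genes, 6 were called higher and 5 lower. All 26 cytosolic ribosomal protein genes were called lower, by 0.63 to 1.14 on the log2 scale, and ribosomal protein genes took 3.10 to 3.18% of counts in KO 10-month lungs against 5.06 to 5.91% in KO E19.5 lungs. The elongation factor genes Eef1a1 and Eef2 fell by 0.77 ± 0.13 and 1.01. Of 18 immediate early genes, 10 were called higher and 2 lower, and these genes also respond to tissue handling. Egr1 had 88, 53.7 and 24.1 CPM in KO 10-month lungs and 8.82, 9.47 and 11.3 CPM in KO E19.5 lungs (2.49, adjusted p = 0.00867, or 0.0557 without the third KO E19.5 library), and Fos differed by 0.49 (adjusted p = 0.442).

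The same comparison in WT lungs asked how much of the KO change was shared. WT lungs had 9801 called genes of 15619 (62.8%), 4928 higher (31.6%) and 4873 lower (31.2%). Across 15470 genes tested in both genotypes, the KO and WT log2 changes had a Pearson r of 0.954 and a Spearman rho of 0.94, a description in which the points are genes that share libraries. The 2 comparisons share no library. Of 9372 genes called in KO and tested in WT, 8171 were called in the same direction in WT (87.2% of the KO calls and 84% of the WT calls) and 10 in the opposite direction. Of 3602 genes called with at least a 2-fold difference in KO, 3588 had the same sign in WT. Some list medians were close, at −2.41 in KO and −2.39 in WT lungs for mitosis, and 4.51 and 4.00 for MHC class II. Others were further apart, at 2.55 in KO and 1.35 in WT lungs for chemokines and 0.52 and 0.11 for cholesterol synthesis. Of 17 ciliated cell genes, 5 were called higher in KO and 14 in WT lungs. No member of these 5 lists was called in the test of the difference.

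**Figure D4:**
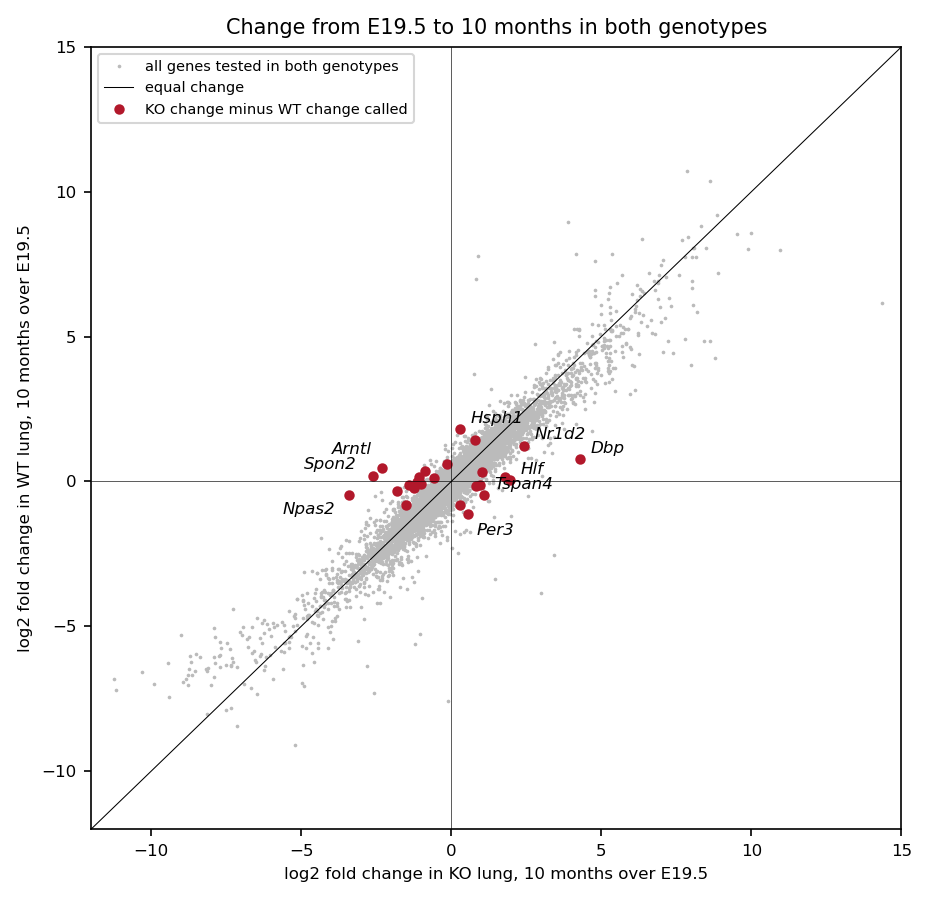
Log2 fold change of 10-month over E19.5 lungs in KO (horizontal axis) and in WT (vertical axis), 1 point per gene, with the line of equal change. Red points are the 25 genes whose change differed between the genotypes. Most genes lie along the line, and the red points lie off it, Dbp to the right and Npas2 and Arntl to the left.

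Some fetal genes had smaller WT falls, and for part of them the gap was mostly gone without 1 WT library. The third WT 10-month library held more RNA of embryo-high genes than the other 2 of its group. Dlk1 differed by −11.22 in KO and by −6.83 in WT lungs, and the WT value was −10.19 without that library. H19 differed by −9.90 in KO and −7.00 in WT lungs, or −9.44 in WT without that library, and Meg3 by −8.14 and −6.54, or −8.21. Other genes kept more of the gap. Eln differed by −6.49 in KO and −4.73 in WT lungs, and the WT value without that library was −5.07, so most of its gap remained. Zim1 differed by −9.44 and −6.28, or −7.83 in WT without that library, and Nrk by −8.49 and −5.95, or −7.17. None of these passed the test of the difference, which gave an adjusted p of 0.0538 for Eln.

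A test of the difference itself, KO change minus WT change over 15994 genes, called 25 genes (0.156%), 10 higher (0.0625%) and 15 lower (0.0938%). At an unadjusted p below 0.05 the count was 1215 (7.6%). Of the 25, 7 belong to the 19 tested genes of the circadian clock list and 1 to the heat shock list. The circadian clock is a loop in which Arntl with Clock or Npas2 activates Per, Cry, Nr1d and PAR-zipper genes at E-boxes, and the Per, Cry and Nr1d proteins repress it in turn. Transcript levels of these genes swing over the day. The labels give no time of collection, so a genotype difference and a difference in the hour of dissection cannot be told apart for them. The same limit holds for any other gene of the 25 that varies over the day. In the values below, CPM are scaled over the 4 groups together.

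The PAR-zipper genes Dbp, Hlf and Tef gained more in KO than in WT lungs. Dbp, a PAR-zipper factor at chr7:45705100-45710203, had 215, 152 and 188 CPM in KO 10-month lungs and 8.53, 8.56 and 11.1 CPM in KO E19.5 lungs. WT lungs had 14, 16.4 and 14.5 CPM at 10 months and 8.86, 7.99 and 9.38 CPM at E19.5. The KO adult libraries stood apart from the other 9, and the changes of 4.30 in KO and 0.77 in WT differed by 3.53 ± 0.20 (adjusted p = 3.44e-06). Hlf, its relative, had 58.5, 56.3 and 46 CPM in KO 10-month lungs and 14.2, 13.1 and 13.9 CPM in KO E19.5 lungs, with 14.8, 17.8 and 13.4 CPM in WT 10-month lungs and 14.2, 13.5 and 17.1 CPM in WT E19.5 lungs (difference 1.92 ± 0.18). Tef, another member of that family, rose by 0.96 in KO and differed by −0.12 in WT (difference 1.08 ± 0.16, adjusted p = 0.0152), a call lost in 7 of 12 fits that left out 1 library, with an adjusted p of up to 0.0727.

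Per3, a period gene at chr4:150997018-151044707, was called in opposite directions. It had 84.9, 87.9 and 67.8 CPM in KO 10-month lungs and 52.1, 57.5 and 54.5 CPM in KO E19.5 lungs (0.55), with 23.4, 24.7 and 24.1 CPM in WT 10-month lungs and 56.3, 45 and 54.6 CPM in WT E19.5 lungs (−1.12). The difference was 1.66 ± 0.15 (adjusted p = 0.000136). The KO change alone was not called with the spread over all 23 libraries (adjusted p = 0.0881). Nr1d2, a repressor of Arntl, rose in both genotypes, by 2.43 in KO and 1.24 in WT (difference 1.19 ± 0.16, adjusted p = 0.00719). Its relative Nr1d1 had 330, 201 and 340 CPM in KO 10-month lungs and 17.1, 15.8 and 35.1 CPM in KO E19.5 lungs (3.68), with no call for the difference (adjusted p = 0.6).

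Npas2 and Arntl, of the activating arm, went the other way. Npas2, at chr1:39193702-39363240, had 2.01, 2.85 and 2.39 CPM in KO 10-month lungs and 25.7, 22.3 and 28.5 CPM in KO E19.5 lungs (−3.40). In WT lungs it had 17.1, 15.6 and 14.8 CPM at 10 months and 22.7, 21.5 and 21.9 CPM at E19.5 (−0.48), so the changes differed by −2.93 ± 0.18 (adjusted p = 3.44e-06). Arntl, at chr7:113178471-113314126, had 4.72, 6.75 and 7.39 CPM in KO 10-month lungs and 30.9, 29 and 33.4 CPM in KO E19.5 lungs (−2.31). WT lungs had 36.9, 34.2 and 40.3 CPM at 10 months and 27.6, 25.5 and 27.8 CPM at E19.5 (0.46), and the difference was −2.77 ± 0.18 (adjusted p = 8.4e-06). The KO 10-month libraries alone were low for both genes. Clock differed by 0 in KO and 0.59 in WT, and Per2 by −0.30 and −1.85, with no call for the difference (adjusted p = 0.0897 and 0.117). Ciart, Bhlhe41 and Nfil3, further clock outputs, had KO changes of 1.90, 2.41 and −2.54 and no call for the difference (adjusted p = 0.0742, 0.223 and 0.504).

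**Figure D5:**
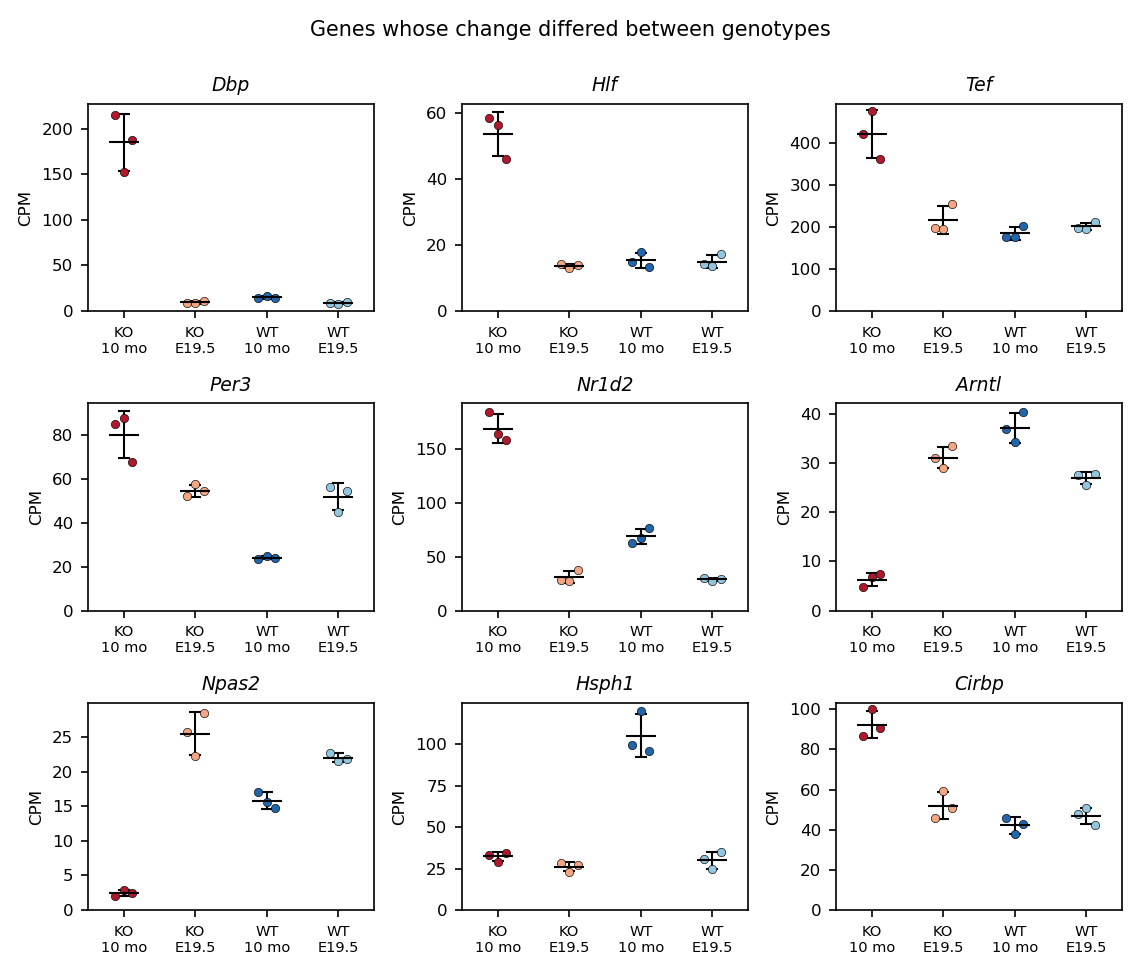
CPM (vertical axes) of 9 genes in KO 10-month, KO E19.5, WT 10-month and WT E19.5 lungs. Points are libraries, and bars show the mean and SD (n = 3 each). KO 10-month lungs stand apart, high for Dbp, Hlf, Tef and Per3 and low for Arntl and Npas2, while Hsph1 is high in WT 10-month lungs.

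Per3 and Tef promoters are shown as the clock genes of this set whose window held a D-box (TTATGTAA), the site of PAR-zipper factors, or an E-box (CACGTG). The windows are built as above from RefSeq on GRCm38.p6, and capitals mark the D-box matches in Per3 and the E-box match in Tef.
Per3, chr4:151044636-151044915, minus strand: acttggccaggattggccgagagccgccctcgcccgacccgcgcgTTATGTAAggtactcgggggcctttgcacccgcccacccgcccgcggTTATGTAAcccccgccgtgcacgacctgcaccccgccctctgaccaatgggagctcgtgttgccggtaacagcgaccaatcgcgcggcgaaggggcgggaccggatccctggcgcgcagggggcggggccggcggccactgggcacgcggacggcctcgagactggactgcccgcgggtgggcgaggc
Tef, chr15:81802423-81802702, plus strand: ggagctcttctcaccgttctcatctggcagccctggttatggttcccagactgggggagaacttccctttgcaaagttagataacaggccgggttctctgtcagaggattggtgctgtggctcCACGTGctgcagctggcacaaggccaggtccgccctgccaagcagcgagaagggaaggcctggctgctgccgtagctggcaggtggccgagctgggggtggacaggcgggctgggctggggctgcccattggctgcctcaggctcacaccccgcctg
Per3 held 2 D-box matches and Tef 1 E-box match. Among the 21 genes of the difference with a window, searched on both strands, 1 held a D-box (Per3), 4 an E-box (Tef, Hsph1, Gprin3 and Fam189a2) and 1 the core of a ROR element, TAGGTCA (Leo1). Of 16 clock genes with a window, 5 held an E-box. Over all 11760 windows, 72 (0.612%) held a D-box, 1087 (9.24%) an E-box and 223 (1.9%) the ROR core.

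Temperature- and stress-responsive genes were also in the set. Hsph1, a heat-shock chaperone, had 33.2, 29.1 and 34.6 CPM in KO 10-month lungs and 28.4, 22.9 and 27.4 CPM in KO E19.5 lungs, with 99.4, 120 and 96.2 CPM in WT 10-month lungs and 30.5, 24.7 and 34.7 CPM in WT E19.5 lungs. The WT adult libraries were the high ones, and the difference was −1.51 ± 0.18 (adjusted p = 0.00381). Stip1, the co-chaperone that links Hsp70 and Hsp90, differed by −0.15 in KO (adjusted p = 0.0762) and 0.60 in WT (difference −0.76). Cirbp, the cold-inducible RNA-binding protein, differed by 0.83 in KO and −0.16 in WT (difference 0.98, adjusted p = 0.0145), a call lost without the first or the second WT E19.5 library (adjusted p = 0.0528 and 0.0637). Hspa8 and Hsp90aa1 were not called (adjusted p = 0.0538 and 0.0512).

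The other genes of the difference cover several functions. Tspan4, a tetraspanin of migrating cells, had 119, 124 and 93.3 CPM in KO 10-month lungs and 51.2, 50.9 and 56.3 CPM in KO E19.5 lungs (1.08), with 37, 40.4 and 35.7 CPM in WT 10-month lungs and 50.9, 52.1 and 53.5 CPM in WT E19.5 lungs (−0.47). The genotypes moved apart, by 1.55 ± 0.14. Spon2, a secreted matrix protein of innate immunity, had 6.75, 3.51 and 11.6 CPM in KO 10-month lungs and 45.1, 41.5 and 47.6 CPM in KO E19.5 lungs, with 44.4, 48.6 and 47.8 CPM in WT 10-month lungs and 37.8, 37.7 and 46.5 CPM in WT E19.5 lungs. Its low level was confined, among these 12 libraries, to the KO 10-month lungs (difference −2.82 ± 0.42, adjusted p = 0.0433), and the call was lost in 10 of 12 fits without 1 library, with values between −3.32 and −2.50. Wee1, which restrains Cdk1, differed by 0.29 in KO (adjusted p = 0.0758) and −0.81 in WT (difference 1.10). Npr3, the clearance receptor of natriuretic peptides, changed by −1.40 in KO and −0.13 in WT (difference −1.27), and Dapk1, a death-associated kinase, by −1.52 and −0.80 (difference −0.72). Dtx4, of Notch signalling, changed by −1.15 in KO and −0.03 in WT (difference −1.13), and Acot1, an acyl-CoA thioesterase, by −1.23 and −0.22 (difference −1.02).

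Of the 25 genes, 18 were called in each of the 12 fits that left out 1 library, and 6 under each of the 24 alternatives: Dbp, Npas2, Arntl, Tspan4, Nr1d2 and Dtx4. With all 23 libraries in the fit, which adds lungs of a later age and tumours, the count was 6, and with DESeq2 it was 109.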

How the data were processed

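RNA sequencing of whole lung gave 1 table with 2 values per gene and library. Per the submitters' processing notes, Trimmomatic 0.36, STAR 2.5.2b and RSEM 1.3.0 were used with build mm10; their roles and settings are not given in the sources used here. The authors deposited expected counts, which RSEM estimates and which need not be whole, and they were rounded here before testing. The authors also deposited FPKM values, used here for levels between genes and in 2 alternatives. RSEM shares out reads between similar genes, so near-identical copies are uncertain. Strand handling is not given, so overlapping antisense genes cannot be separated.

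Groups follow the labels, as 3 KO 10-month, 3 KO E19.5, 3 WT 10-month and 3 WT E19.5 libraries with 23911043 to 32042766 counts each. In R 4.3.3, edgeR 4.0.16 ran the default expression filter, TMM scaling and a robust quasi-likelihood F test on the 2 groups compared, with Benjamini-Hochberg adjustment, and 8785 of 24411 genes did not pass the filter. The difference between genotypes was an interaction term over the 12 libraries. Standard errors were derived from the fitted change and its F value, and fitted changes use a prior count of 0.125. Alternatives used DESeq2 1.42.0, limma 3.58.1, other scaling, filters and pseudocounts of 1 and 0.1, and left out each library. Python 3.11.15 with pandas 2.3.3, numpy 2.4.6 and matplotlib 3.10.9 made summaries and figures.

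The comparison and the 66 gene lists were chosen with earlier results of these data known. The naming rule took the 14 largest rises and 14 largest falls among called genes whose groups did not overlap and whose higher group averaged 10 CPM or more, and 8 each way by CPM difference. Per list, up to 4 members by adjusted p were named, plus members by role, and for the difference up to 10 each way at a mean of at least 2 CPM. Further members of lists and of the difference were named after their values were seen. Predicted genes, pseudogenes and antigen receptor segments were skipped. A few genes met this rule and are not given here. Coordinates came from RefSeq on GRCm38.p6, of which mm10 is the same assembly; 24157 genes matched by accession and 157 by symbol, and 97 had none. Counting intervals at 95% and the floor of 3 reads cover counting error only.

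Libraries of a group differed by more than sampling noise (chi-square per degree of freedom 12.9 to 42.0), so none was counted as a copy. In simulated data over 15626 genes, 73, 64 and 63 genes were changed by 1.5, 2 and 4-fold. The procedure recovered 42.47%, 79.69% and 95.24% of them, and 14 of 156 calls (8.97%) were false. In the KO comparison itself 9454 genes were called. Recovery and false share depend on how many genes change, so these rates need not hold for it. The other libraries of the series, WT and KO lungs of a later age and KO lung tumours, entered 1 alternative alone. In that fit over all 23 libraries the filter and the scaling were also taken over all of them.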

Additional observations from a re-analysis of the deposited data

Results flagged for a closer look

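The change between E19.5 and 10 months differed between KO and WT lungs, by edgeR's interaction test with an adjusted p below 0.05, for 25 genes, which are listed as KO change minus WT change on the log2 scale. Clock genes among them were Dbp at 3.53, Hlf at 1.92, Per3 at 1.66, Nr1d2 at 1.19 and Tef at 1.08, and with the opposite sign Npas2 at −2.93 and Arntl at −2.77. The chaperone genes Hsph1 and Stip1 stood at −1.51 and −0.76, and the cold-inducible gene Cirbp at 0.98. Further genes with a more positive KO change were Rasd2 at 1.64, Tspan4 at 1.55, Wee1 at 1.10 and Zfp346 at 0.70. More negative KO changes were found for Spon2 at −2.82, Rasl11a at −1.46, Npr3 at −1.27, Leo1 at −1.24, 5430416O09Rik at −1.23, Dtx4 at −1.13, Acot1 at −1.02, Gprin3 at −0.96, Dapk1 at −0.72, Glipr2 at −0.71 and Fam189a2 at −0.61. In fits that left out 1 of the 12 libraries, Gprin3, Glipr2 and Spon2 lost the call in 10, Fam189a2 and Zfp346 in 9, Tef in 7 and Cirbp in 2, each keeping its sign. Without 1 library the values ran between −0.68 and −0.56 for Fam189a2, between 0.65 and 0.78 for Zfp346, between −0.78 and −0.60 for Glipr2 and between −1.03 and −0.86 for Gprin3. Time of day, on which clock transcripts depend, is not in the labels.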

How the results depend on the processing

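The count of 9454 genes called between KO 10-month and KO E19.5 lungs ran between 8380 and 9540 when 1 library was left out and between 8728 and 9725 under the other alternatives; the counts of higher genes ran between 4313 and 4895 and of lower genes between 4059 and 4645 without 1 library. With a 2-fold minimum the count of 3683 was 2125 with limma on log2(FPKM + 1), which understates low genes, and 2373 with a test against 2-fold, 4122 with no filter on low counts, and 3648 to 3758 without 1 library. Of calls, 51.4% were higher, between 46.3% without TMM scaling and 52.1% with the replicate block, and the median of all genes, 0.003, was at its lowest −0.0509 without TMM scaling. In WT lungs 9801 genes were called, 8885 to 9478 without 1 library (4488 to 4813 higher, 4352 to 4665 lower). The 25 differences between genotypes (10 higher, 15 lower) were 109 with DESeq2 (39 and 70) and 6 with all 23 libraries in the fit (3 and 3), and 19 to 31 without 1 library (7 to 14 higher, 11 to 18 lower); the cause was not tested. Of 750 called genes among 1030 named or listed and tested, 619 held under all alternatives, 131 lost the call under at least 1 (93 without 1 library, 29 with the block) and 0 reversed. Replicate numbers did not pair the samples: deviations of same-numbered KO libraries correlated at −0.0945, −0.175 and −0.0773. With the replicate number as a block, 8747 genes were called in KO and 25 in the difference. Leaving out the ribosomal RNA gene Rn45s, an alternative chosen after seeing the data, gave 9455 calls. In simulated data at this depth, with far fewer changed genes than were called here, 42.47% of 1.5-fold changes were recovered.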
